A study of Mus musculus with 8 samples.

Results

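The genes described here encode the proteins of the cytosolic ribosome. Members were found by gene symbol. A member was any row whose symbol was Rps or Rpl, a number and at most a letter a, x or l, together with Rplp0, Rplp1, Rplp2 and Rpsa. This gave 81 of the 24303 rows of the table, 32 for the small (40S) subunit and 49 for the large (60S) subunit. Rows whose symbol ends in -ps, which name processed pseudogenes, were not members. RNA-Seq was made from P14 cells, CD8 T cells of mice on a C57BL/6 background whose transgenic receptor recognizes GP33, a peptide of LCMV. CD8 T cells isolated from spleens were activated on plates with anti-CD3 and anti-CD28 for 2 days in all groups and then grown with IL-2 and IL-15. Effector cells were collected on day 7, under repeated GP33. Acute-2d cells saw no stimulus after day 2. Acute-7d cells were given GP33 up to day 7 and then rested. T_Dysf cells were given GP33 repeatedly up to day 19, with TGF-β1 from day 7. The latter 3 groups were collected on day 19. Each group had 2 libraries, which the series calls biological replicates. T_Dysf thus differs from the rested groups by both antigen and TGF-β1, and from Effector also by age in culture, so these cannot be told apart.

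Each ribosome holds 1 copy of nearly every ribosomal protein, and the P stalk, which recruits the elongation factors, holds Rplp0 with pairs of Rplp1 and Rplp2. The mRNAs of these proteins are among the most abundant of a growing cell. Most start with a C followed by a run of pyrimidines, the terminal oligopyrimidine (TOP) motif, through which mTORC1 and Larp1 control their translation, and Myc promotes the synthesis of ribosomes. T cells make many ribosomes when they are activated and fewer at rest. Mammalian genomes also hold many processed pseudogenes of each of these genes, reverse-transcribed copies of the mRNA, so that short reads can match both the gene and a copy.

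The starts of 10 members on which the results turn are as follows. The first 6 were lower in T_Dysf than in Acute-7d by the test given later, on levels summed with sequence copies. Rps27 and Rps18 did not pass on their own rows. The last 4 had positive differences in that comparison on summed levels, of which that of Rps27l passed. Rps26 did not pass there and was higher in Effector than in Acute-7d. Each runs from 12 bases before to 18 bases into the start of the first exon in RefSeq (GRCm38.p6), on the strand of the gene, and the longest pyrimidine run that touches the 5 bases on either side of the start is in capitals. The windows lie at chr3:90213631-90213660 (Rps27, minus strand), chr7:141447639-141447668 (Rplp2, plus), chr14:24490666-24490695 (Rps24, plus), chr17:33955648-33955677 (Rps18, minus), chr2:32961700-32961729 (Rpl12, plus), chr7:24884580-24884609 (Rps19, plus), chr9:66946074-66946103 (Rps27l, plus), chr10:128626489-128626518 (Rps26, minus), chr7:4792953-4792982 (Rpl28, plus) and chr1:39367839-39367868 (Rpl31, plus).
Rps27: tccgctttcgCTCCTTTCCggcggtgacga
Rplp2: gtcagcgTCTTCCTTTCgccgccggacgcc
Rps24: gcgctggggTCCTTCCTTgcgcgttgatat
Rps18: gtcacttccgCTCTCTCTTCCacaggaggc
Rpl12: ggagcaggatccgTCTTTTCggctttcggc
Rps19: gaaaTCTCgcgagactcgacgcccgacttg
Rps27l: CTCCTCCCCgccgcctctatcccggaagtt
Rps26: gggcaagccgccggaTCCTCTTTCgagtct
Rpl28: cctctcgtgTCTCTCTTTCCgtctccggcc
Rpl31: cctcctcgCCTCCCCgtgacccggaagttg

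A run of at least 8 pyrimidines touching these bases was found at 21 of the 59 members in the RefSeq promoter table (35.6%), against 9.63% of 27025 promoters. Among the windows printed, Rps27, Rplp2, Rps24, Rps18, Rps27l, Rps26 and Rpl28 have such a run and Rpl12, Rps19 and Rpl31 do not. The motif CCGGAAG, read by ETS factors and searched on both strands in the 300 bases of each promoter, was at 40.7% of members, 9.12% of all promoters and 20.8% of promoters of genes in the table with a mean of at least 50. AAGATGGC, the YY1 motif, was at 6.78% of members, 2.88% of all promoters and 5.31% of promoters of genes at that mean. TATAAA was at 10.2% of members, 14.2% of all promoters and 6.53% of promoters of genes at that mean, so members lay below one background and above the other. A letter match does not show a site that is used.

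Values are normalized counts, reads per gene divided by the size factor of the library. The 8 libraries held 19382147 to 24856224 reads as judged from the worth of 1 read. The summed counts of 7 T cell markers were 63064 to 131706, and Cd4 was at 1.01 to 13.0. Summed B cell markers reached 161 and erythroid markers 47.4 in any library, myeloid markers 713, and the 3 NK markers (Ncr1, Klrb1c and Klrk1) 9013. Activated CD8 T cells also express Klrk1, and the 3 genes were read only as a sum. A prefix, RESUB, stands in 3 library names, those of Effector replicates 1 and 2 and of the first Acute-7d replicate. What it marks is not given. It cannot be told apart from Effector as a group, and it divides Acute-7d.

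T_Dysf replicate 1 stood apart from the other 7 libraries in how reads of these genes were divided between the gene and its copies. By coding sequence or symbol, 685 rows of the table were copies of a member, 659 of them annotated as pseudogenes. Of these, 657 matched by sequence (at least 90% identity over at least 50% of the coding sequence) and 28 by a -ps symbol alone. In T_Dysf replicate 1, 426 copy rows were at or under 3 reads, against 125 to 178 in the other libraries. The member rows held 53.8% of the reads of members and copies there and 47.4% to 49.0% elsewhere. For Rpl17, a protein of the peptide exit tunnel, with 35 copy rows, the member row was at 52.0 in T_Dysf replicate 1 and 802 in replicate 2, while the row and its copies together gave 25144 and 25149. Rpl23 was at 1455 and 5877 on its own row and at 16217 and 15877 with its copy. Rpl11, which binds Mdm2 when it is free of the ribosome, was at 3379 and 1331 on its row and at 22556 and 27360 with copies. For these 3 genes the gap on the single row ran in either direction, and on sums it was small.

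Because of this, each member is given below by its own row, on which the main test was run, and by the sum of the row and its copies, called the summed level, which was chosen after the data were seen. Sums gave 79 families, since Rpl6l and Rpl32l are copies of Rpl6 and Rpl32. The T_Dysf replicates differed by over 2-fold on 10 of 80 member rows with a mean of at least 50 and in 3 of 78 families, and the SD of their log2 gap went from 0.83 to 0.41. The 3 families were Rpl39, Rpl38 and Rpl35a, all higher in replicate 1, with summed levels of 6459 and 1931, 2912 and 1039, and 7405 and 3190. Adding copies did not narrow every gap. The row of Rpl35a was at 2219 and 2107, and its gap (log2) went from 0.07 to 1.21 with copies. That of Rpl38 went from 1.21 to 1.49. For 10 families with a coding length under 300 bases the median gap was 0.45 (log2, replicate 1 minus 2), for 46 of 300 to under 600 bases 0.12, and for 21 of 600 or more −0.11. The part of transcript length in the results was not tested.

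**Figure D1:**
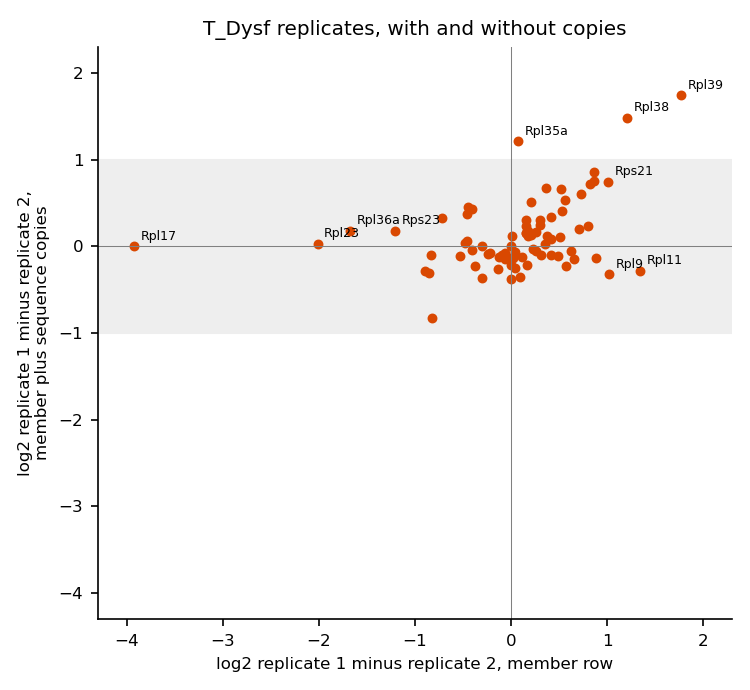
T_Dysf replicate 1 minus replicate 2 (log2) for each member with a mean of at least 50, on its own row (x axis) and with all sequence copies added (y axis). The grey band marks gaps within 2-fold. Rows as far apart as Rpl17 (−3.92) came close to 0 once copies were added, while Rpl39 (1.77 on its row) stayed apart. Rpl35a moved away from 0, from 0.07 to 1.21.

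Ribosomal protein mRNA took a smaller part of the transcriptome of T_Dysf and Effector cells than of rested cells. On the member rows alone the share of all normalized counts was 4.01% and 3.29% in the Effector libraries, 4.78% and 5.18% in Acute-2d, 4.72% and 4.66% in Acute-7d and 3.55% and 3.18% in T_Dysf. The 4 libraries of Acute cells lay above all 4 others. With copies the shares were 8.35% and 6.72% in Effector, 9.997% and 10.9% in Acute-2d, 9.96% and 9.75% in Acute-7d and 6.60% and 6.50% in T_Dysf. The order of the groups was the same, T_Dysf and Effector replicate 2 lay next to each other, and the spread between the Effector replicates (SD 1.15 points, n = 2) was the widest. The 40S rows held 1.48% ± 0.13 of counts in T_Dysf and 2.19% ± 0.00092 in Acute-7d, and the 60S rows 1.88% ± 0.13 and 2.50% ± 0.041 (SD, n = 2 each). Both subunits were lower in T_Dysf by more than the spread of the replicates. These are shares of sequenced mRNA in bulk samples, in which fewer cells of a type and less RNA per cell cannot be told apart.

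**Figure D2:**
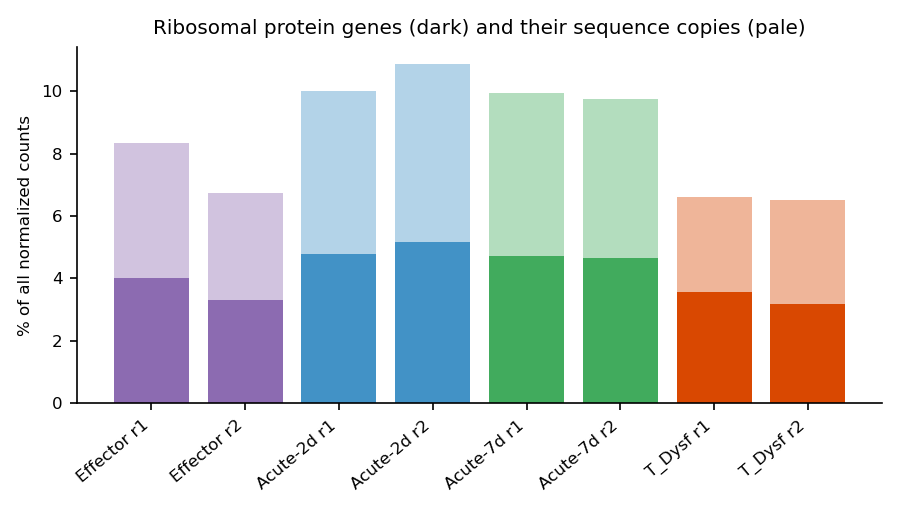
Percent of all normalized counts in each of the 8 libraries (r1 and r2 are replicates 1 and 2) on the 81 ribosomal protein rows (dark) and on rows that are sequence copies of them (pale, stacked on top). The stacks end at 6.50% to 8.35% in Effector and T_Dysf and at 9.75% to 10.9% in both Acute groups.

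In T_Dysf against Acute-7d, which asks how continued antigen with TGF-β1 compares with rest after the same first week, 16 of 81 member rows were lower and 0 were higher (limma, Benjamini-Hochberg adjusted p under 0.05). The whole table held 4.42% of rows that were lower and 4.79% that were higher in this comparison. Past a 2-fold difference as well were 4 members that were lower, Rpl12, Rpl10a, Rpl13 and Rps12 (3.03% of all rows), and 0 that were higher (2.54%). Without adjustment 40 members were lower and 2 higher at p under 0.05, where all rows gave 12.9% and 13.2%. Limma-voom, run on rows with a maximum of at least 50, called 39 and 1, where its rows gave 12.4% and 13.1%. The median over the 80 members with a mean of at least 50 was −0.53 (log2), with 71 of them below 0, while the median over all 12028 rows of that level was 0.02. On summed levels 22 of 79 families were lower, 10 of 32 for 40S and 12 of 47 for 60S, against 4.66% of all rows, and 1 was higher, against 5.07%. Past 2-fold were 7 families that were lower (3.15% of all rows) and 0 higher (2.68%). The median of families was −0.57, and 13 of the 16 lower rows were also lower as families. The libraries did not overlap in 59 families that were lower, against 33.8% of all rows of that level, and in 5 that were higher, against 39.7%.

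Of the P stalk, Rplp2 was at 13790 and 12802 in Acute-7d and at 7552 and 6113 in T_Dysf. It fell by 0.97 ± 0.16 (log2 ± SE, adjusted p = 0.033, limma), and nearly all reads of its family were on its own row. Rplp1 had summed levels of 34623 and 31677 in Acute-7d and 21382 and 16923 in T_Dysf, a difference of −0.80 ± 0.16 (adjusted p = 0.049, limma). Rplp0, which anchors them, had 79027 and 77480 against 53496 and 58508, a difference of −0.48 ± 0.19 that did not pass (adjusted p = 0.20, limma). For all 3 proteins the T_Dysf libraries lay under the Acute-7d libraries, as in 33.8% of all rows with a mean of at least 50. Rpl12, which lies at the base of the stalk, had the largest decrease on summed levels, from 61294 and 58560 to 21872 and 26540, a difference of −1.31 ± 0.17 (adjusted p = 0.017, limma). Its own row gave −1.998 ± 0.30 (adjusted p = 0.025, limma), and −1.55 without T_Dysf replicate 1.

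Among 40S members, Rps3, of the mRNA entry channel, was at 58950 and 57189 against 32487 and 34025, a difference of −0.80 ± 0.15 (adjusted p = 0.043, limma). The replicates of each group were close together and the groups were far apart. Rps19, mutated in Diamond-Blackfan anemia, fell by 1.01 ± 0.13 on summed levels (27519 and 26774 to 13208 and 13788, adjusted p = 0.016, limma). Rps24, mutated in the same disease, had summed levels of 43064 and 37661 in Acute-7d and 22860 and 20520 in T_Dysf, a fall of 0.89 ± 0.15 (adjusted p = 0.034, limma). Their own rows passed the test as well. Rps18 and Rps27 passed on summed levels, with differences of −1.04 ± 0.18 and −1.03 ± 0.20 (adjusted p = 0.033 and 0.043, limma), and not on their rows (adjusted p = 0.10 and 0.062).

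Rpl17, Rpl32l and Rpl36a were, with Rpl12, the rows with the most negative differences, −2.52, −2.32 and −1.74, and none of these 3 passed. Each was far lower in T_Dysf replicate 1 than in replicate 2, and without replicate 1 their differences were −0.56, −0.93 and −0.91. As families, Rpl36a was at 11763 and 10409 in Acute-7d and 5695 and 5021 in T_Dysf, a fall of 1.05 ± 0.15 (adjusted p = 0.021, limma). Rpl17 had a difference of −0.64 ± 0.17 (adjusted p = 0.095). Rpl13 fell by 1.06 ± 0.13 on its row and by 1.02 ± 0.18 with copies (adjusted p = 0.016 and 0.034, limma).

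A few members did not follow the rest. Rps27l, a p53-induced paralog of Rps27, was at 813 and 817 in Acute-7d and at 1251 and 1122 in T_Dysf on its row. The difference of 0.54 ± 0.11 was just short of the threshold (adjusted p = 0.051, limma), and the summed level passed it (0.53 ± 0.11, adjusted p = 0.0495). Rpl31 had summed levels of 7669 and 7786 against 11724 and 9053 (0.41 ± 0.16, adjusted p = 0.19, limma). It did not pass. Both T_Dysf libraries lay above both Acute-7d libraries, as in 39.7% of all rows with a mean of at least 50. Rpl13a, which is released from the ribosome to silence inflammatory mRNAs, was at 62232 and 57595 against 62620 and 55382 on its row, a difference of −0.02 ± 0.20, so the groups overlapped.

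Of 77 families with a mean of at least 50 and an annotated coding sequence, 13 had at least 90% of the summed level on the member row in every library, so their rows hardly depend on how copies were handled (among them Rpl13a, Rpl22, Rpl4, Rpl8, Rplp2, Rps27l and Rps3). Their median difference between T_Dysf and Acute-7d was −0.50, and 10 of the 13 were below 0, against 48.4% of all rows with a mean of at least 50. Called lower were 4 (4.42% of all rows) and higher 0 (4.79%). Rpl8, a large-subunit protein near the peptidyl transferase center with no copy row, was at 27891 and 27728 in Acute-7d and 21381 and 23285 in T_Dysf, a difference of −0.32 ± 0.10 (adjusted p = 0.13, limma). Rpl41, the shortest member, was at 18179 and 13871 against 16286 and 14442 and overlapped.

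The counts of calls in this comparison moved with the libraries in the fit. With a term for the RESUB prefix 1 member row and 0 families were called, and with the 2 groups alone 5 rows and 4 families. Against Acute-7d replicate 2, the library without the prefix, the median was −0.50 on rows and −0.52 for families. Member rows called numbered 1 without either Acute-7d library, 7 without either Acute-2d library, 4 without T_Dysf replicate 1 and 20 without T_Dysf replicate 2. Families called lower numbered 0 without either Acute-7d library or either T_Dysf library and 6 without either Acute-2d library. The family median stayed between −0.64 and −0.52 in these fits.

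Against Acute-2d, cells last stimulated on day 2, most members were lower as well, with the same 2 T_Dysf libraries as in the comparison with Acute-7d. Lower were 22 of 81 member rows (6.01% of all rows) and higher was 1, Rps27l (5.85% of all rows). On summed levels 32 of 79 families were lower, against 6.21%, and 2 were higher, against 6.18%. Past 2-fold were 9 rows that were lower (4.21% of all rows) and 0 higher (3.14%), and 13 families that were lower (4.32%) and 0 higher (3.29%). The median over members was −0.60 on rows and −0.63 for families. Rps14, of the 40S platform, had summed levels of 50683 and 59133 in Acute-2d and 24691 and 26454 in T_Dysf, a difference of −1.10 ± 0.15 (adjusted p = 0.017, limma). Rpl22, which is lost in some T cell leukemias and is needed for αβ T cell development, was at 12222 and 12911 against 6385 and 5539 on its row, a difference of −1.08 ± 0.15 (adjusted p = 0.017, limma). In both genes the 4 libraries formed separate pairs. Rps27l was at 765 and 872 in Acute-2d, and T_Dysf was higher by 0.54 ± 0.11 (adjusted p = 0.045, limma). The most negative rows were again Rpl17, Rpl12, Rpl32l and Rpl36a, of which Rpl12 passed on its row (−2.53 ± 0.30, adjusted p = 0.012), and Rpl12, Rpl36a and Rpl17 passed on summed levels (−1.56, −1.11 and −0.82). Rpl31 had a positive difference on its row, 0.32 ± 0.21, that did not pass. Without Acute-2d replicate 1 or 2 the families called lower numbered 3 and 2, without T_Dysf replicate 1 or 2 they numbered 1 and 3, and without either Acute-7d library 11, with medians from −0.72 to −0.55. The rows called were 3, 2, 7, 21 and 10 in the same order.

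Effector cells, collected under stimulation on day 7, also had lower levels than Acute-7d cells for many members. Of 81 member rows 14 were lower (7.16% of all rows) and 4 were higher (7.7% of all rows). All 4 that were higher encode 40S proteins. On summed levels 12 families were lower, against 7.51%, and 4 were higher, against 8.16%. Past 2-fold were 1 row that was lower, Rps27 (3.88% of all rows), and 0 higher (4.18%), and 2 families that were lower, Rps27 and Rps24 (4.06%), and 0 higher (4.38%). The median over members was −0.39 on rows and −0.43 for families. Rps27 was at 12072 and 8767 in Effector and 29494 and 23247 in Acute-7d on summed levels, a difference of −1.35 ± 0.20 (adjusted p = 0.021, limma). Rps24 had summed levels of 22144 and 18086 against 43064 and 37661, a difference of −1.01 ± 0.15 (adjusted p = 0.022, limma). Rplp2 was at 7014 and 6588 against 13790 and 12802 on its row, a difference of −0.97 ± 0.16 (adjusted p = 0.027, limma). For these genes both Effector libraries lay far below both Acute-7d libraries. Rps21 and Rpl38, short 40S and 60S proteins, had the next most negative rows, −1.20 ± 0.40 and −1.09 ± 0.45, and did not pass (adjusted p = 0.12 and 0.19, limma).

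In the same comparison Rps27l was at 1447 and 1686 in Effector and 813 and 817 in Acute-7d, higher by 0.94 ± 0.11 (adjusted p = 0.016, limma). Rps26, which contacts the mRNA upstream of the start codon, had summed levels of 19017 and 18187 against 11702 and 12048, higher by 0.65 ± 0.11 (adjusted p = 0.025, limma). Rpl31 had the highest difference of 60S rows, 0.73 ± 0.21, and did not pass (adjusted p = 0.089, limma). Here the prefix RESUB is shared by both Effector libraries and Acute-7d replicate 1. Against that library alone the median was −0.43 on rows and −0.48 for families, and with a RESUB term 0 member rows were called. Without Acute-7d replicate 1 or 2 the rows called were 0, with a median of −0.34 and −0.43, and without Effector replicate 1 or 2 they were 15 and 5, with −0.48 and −0.25. Without T_Dysf replicate 1 or 2 they were 6 and 5, and without either Acute-2d library 9. Families called lower numbered 0 without either Acute-7d library or Effector replicate 2, 15 without Effector replicate 1, 1 without either T_Dysf library and 3 without either Acute-2d library.

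**Figure D3:**
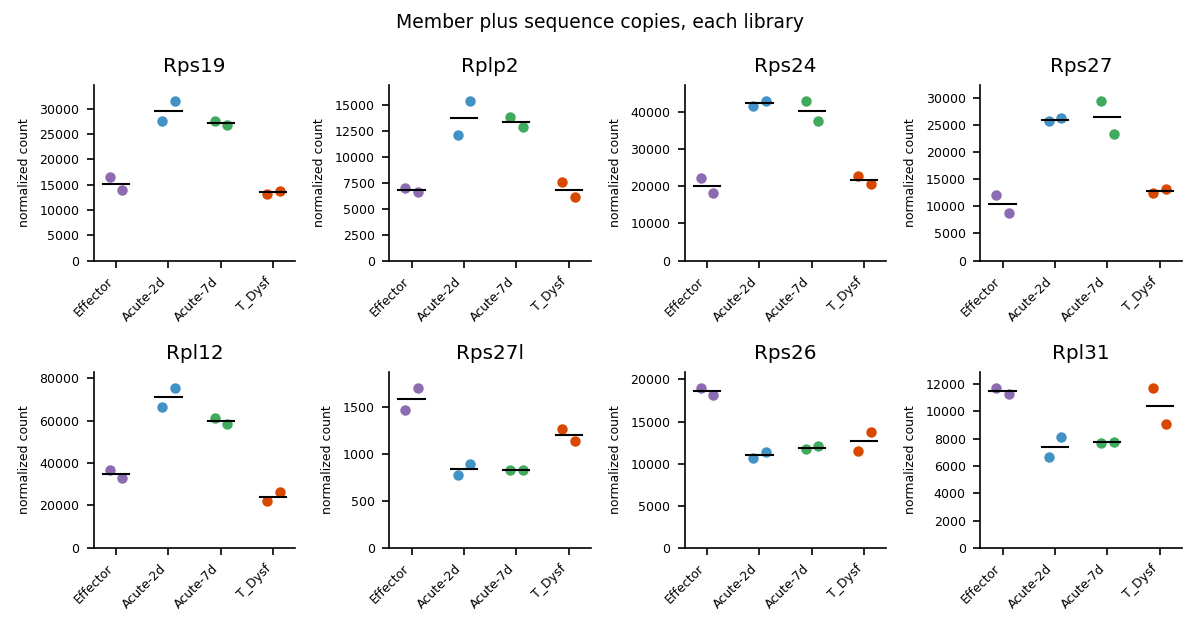
Normalized counts of 8 members with their sequence copies in each library (points) with the mean of each group (line), on axes that start at 0. Rps19, Rplp2, Rps24, Rps27 and Rpl12 were lower in Effector and T_Dysf than in both Acute groups, Rps27l was higher, and Rps26 was highest in Effector.

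T_Dysf against Effector gave smaller differences. Of 81 member rows 8 were lower (7.44% of all rows) and 0 higher (8.14% of all rows), both by limma, and at an unadjusted p under 0.05 there were 19 and 3, where all rows gave 16% and 15.8%. Limma-voom called 19 and 2, where its rows gave 22% and 18.2%. On summed levels 7 families were lower, against 7.8%, and 0 higher, against 8.61%, with 16 and 2 unadjusted, where all rows gave 16.2% in either direction. Past 2-fold were 2 rows that were lower, Rpl10a and Rpl12 (4.75% of all rows), and 0 higher (4.47%), and 0 families in either direction (4.92% of all rows were lower and 4.72% higher). The share of members called lower was near that of the whole table, and the share called higher was below it. The median was −0.18 on rows and −0.20 for families, where all rows of that level had −0.04. Rpl10a fell on its row from 4847 and 4463 to 1414 and 1943, by 1.49 ± 0.16 (adjusted p = 0.0091, limma), and on summed levels from 21617 and 18212 to 13747 and 13139, by 0.56 ± 0.12 (adjusted p = 0.045). Rps2, with 44 copy rows, had summed levels of 66456 and 63759 in Effector and 30845 and 39421 in T_Dysf, a difference of −0.90 ± 0.20 (adjusted p = 0.043, limma). Rps26 was lower by 0.56 ± 0.11 on summed levels (adjusted p = 0.030, limma), which were at 11529 and 13770 in T_Dysf. Rpl12 passed on its row (−1.46 ± 0.30) and not on its summed level (−0.53 ± 0.17, adjusted p = 0.10). Among the highest rows in T_Dysf, Rpl39, Rpl38 and Rps21 had differences of 0.74, 0.68 and 0.65 and did not pass (adjusted p = 0.45, 0.37 and 0.34, limma). Without T_Dysf replicate 1 Rpl39 had −0.15. The rows of Rpl32l and Rpl17 had −1.94 ± 0.95 and −1.83 ± 1.27 and did not pass, and Rpl17 had 0.13 ± 0.17 with copies. With a RESUB term 0 rows were called and the median was −0.10. Leaving out either Effector library or either Acute-7d library left 3 rows called, leaving out T_Dysf replicate 1 or either Acute-2d library left 4, and leaving out T_Dysf replicate 2 gave 19. Families called lower numbered 0 without T_Dysf replicate 1, 2 without T_Dysf replicate 2, with 3 then higher, and 3 without any other single library.

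The rested groups had the smallest median difference of the 5 comparisons. Between Acute-7d and Acute-2d 0 member rows were called in either direction by limma, and 0.0782% of all rows were higher and 0.0905% lower. At an unadjusted p under 0.05 there was 1 member, which was higher, where all rows gave 3.24% higher and 4.07% lower. Limma-voom called 0, where its rows gave 0.00759% and 0.0152%. On summed levels 0 families were called, with 0.0805% and 0.0932% of all rows, and 0 passed without adjustment, where all rows gave 3.32% higher and 4.2% lower. The median difference was −0.07 on rows and −0.06 for families, and 0.0020 for families without Acute-2d replicate 2. The extremes among rows with a mean of at least 50 were Rpl12 at −0.53 ± 0.30 and Rps4l at 0.75 ± 0.55, and neither passed (adjusted p = 0.83 and 0.86, limma). Next to them, also short of the threshold, were Rpl17, Rpl22 and Rpl36a at −0.27, −0.26 and −0.26 and Rps29 and Rps28 at 0.25 and 0.21. Families with no overlap of libraries numbered 24 lower and 7 higher, against 19.1% and 18.7% of all rows of that level.

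Paralogs stood at very different levels, which for Rps27 depended on its copies. Per kilobase of transcript, the summed level of Rps27 was 76437 normalized counts in Acute-7d and 37063 in T_Dysf, and that of Rps27l was 1657 and 2399. So the differences between T_Dysf and Acute-7d were −1.03 for Rps27 and 0.53 for Rps27l. The Rps27 row held only 2.05% and 2.25% of its sum in Acute-7d, and the rest lay on 6 copy rows. On own rows, not scaled by length, Rps27 was at 605 and 523 there and Rps27l at 813 and 817. Families with under 10% of the sum on the member row, on average over the 7 libraries other than T_Dysf replicate 1, numbered 13 of 77. Rpl39 and its testis-enriched paralog Rpl39l also differed: the row of Rpl39 was at 1804 to 6288, and Rpl39l, the only member with a mean under 50, was at 0 to 29.0. In Acute-2d replicate 1 Rpl39l was at 0. Rps4x, the X-linked 40S gene, had summed levels of 39066 and 41360 in Acute-7d and 27807 and 25548 in T_Dysf (−0.59 ± 0.13, adjusted p = 0.060, limma). Rps4l, which RefSeq lists as a transcribed pseudogene, was at 30.2 to 116. Rpl3 and Rpl10, whose paralogs are found in muscle and testis, had summed differences of −0.60 ± 0.17 and −0.32 ± 0.12 (adjusted p = 0.11 and 0.19, limma).

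Other members with functions outside the ribosome gave graded values. Rps6, the substrate of S6 kinase, had summed levels of 48096 and 47775 in Acute-7d and 32736 and 33709 in T_Dysf, a difference of −0.53 ± 0.14 (adjusted p = 0.097, limma). Rpl5, which with Rpl11 and 5S rRNA binds Mdm2, had 49666 and 51369 against 26230 and 32496, a difference of −0.79 ± 0.17 (adjusted p = 0.058). Rpl11 had 34224 and 32244 against 22556 and 27360, a difference of −0.42 ± 0.17 (adjusted p = 0.21). Rpsa, also known as the laminin receptor, had 71489 and 73603 against 42045 and 41388, a difference of −0.80 ± 0.17 (adjusted p = 0.056). None of these 4 families passed against Acute-7d. The libraries of T_Dysf lay below those of Acute-7d in each, as in 33.8% of all rows with a mean of at least 50. Against Acute-2d Rpl5 and Rpsa passed (adjusted p = 0.039 and 0.030, limma). Rpl22 passed in both (−0.86 ± 0.15 against Acute-7d, adjusted p = 0.035, with copies).

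Genes that work with the ribosome were read on single rows. Of all rows 4.42% were lower and 4.79% higher in T_Dysf than in Acute-7d. Of 6 ribosomal proteins outside the symbol rule, 0 passed in that comparison, and the median was −0.35. Fau, which carries Rps30, was at 6124 and 4872 in Acute-7d and 3774 and 3478 in T_Dysf (−0.59 ± 0.25), and Rack1 at 42874 and 43930 against 27262 and 30233 (−0.60 ± 0.14, adjusted p = 0.071, limma). Rack1 passed against Acute-2d (−0.70 ± 0.14, adjusted p = 0.042). Of 10 elongation factors and related genes 2 were lower (4.42% of all rows) and 1 higher (4.79%), with a median of −0.30. Tpt1, a TOP mRNA, fell by 0.76 ± 0.14 (27069 and 25423 to 15136 and 15828, adjusted p = 0.037, limma) and Eef1b2 by 0.47 ± 0.08 (adjusted p = 0.038). Eef2k, the kinase that inhibits Eef2, was higher by 1.59 ± 0.26 (464 and 713 to 1676 and 1783, adjusted p = 0.031). Eef1a1 and Eef2 themselves had −0.22 ± 0.48 and 0.20 ± 0.30 and did not pass.

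Genes for ribosome assembly behaved differently from the ribosomal proteins in Effector cells. Of 40 genes of rRNA processing and assembly, 16 were higher and 0 lower in Effector than in Acute-7d (median 0.71). Of all rows 7.7% were higher and 7.16% lower, and ribosomal protein families had a median of −0.43. In T_Dysf 8 of the 40 were lower (4.42% of all rows) and 0 higher (4.79%) than in Acute-7d, with a median of −0.50. Against Effector 34 were lower (7.44% of all rows) and 0 higher (8.14%), with a median of −1.20 and all 40 below 0. Nop16 was at 1014 and 1262 in Effector, 537 and 550 in Acute-7d and 237 and 310.5 in T_Dysf. Nle1, Rrp12 and Dkc1 fell by 1.16 ± 0.09, 1.09 ± 0.20 and 1.01 ± 0.20 between Acute-7d and T_Dysf (adjusted p = 0.0052, 0.038 and 0.049, limma). Npm1 was at 10636 and 10890.1 in Acute-7d and 9005 and 6364 in T_Dysf and did not pass (−0.51 ± 0.19). Of 19 genes of RNA polymerase I, 4 were higher in Effector than in Acute-7d (7.7% of all rows) and 0 lower (7.16%). Polr1b, the second largest subunit of the polymerase, was at 1927 and 2275 in Effector, 1279 and 1156 in Acute-7d and 383 and 424 in T_Dysf. Polr1b was the 1 gene of the list that passed between T_Dysf and Acute-7d (−1.59 ± 0.11, adjusted p = 0.0044, limma), where 4.42% of all rows were lower.

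Of 37 initiation factors, 14 were higher (7.7% of all rows) and 1 lower (7.16%) in Effector than in Acute-7d, with a median of 0.52. In T_Dysf 2 were higher (4.79% of all rows) and 1 lower (4.42%) than in Acute-7d, with a median of 0.07. The latter were Eif3h (0.51 ± 0.08), Eif2b2 (0.34 ± 0.06) and Eif4a2 (−0.57 ± 0.06). Of 11 snoRNA host genes, many of them TOP mRNAs whose introns carry snoRNAs, 4 were lower in T_Dysf than in Acute-7d (4.42% of all rows). In the same comparison 0 were higher (4.79%), and the median was −0.61. Snhg15 had the largest fall, from 1077 and 997 to 231 and 215 (−2.21 ± 0.25, adjusted p = 0.013, limma), with Snhg8 (−0.95 ± 0.15), Epb41l4aos (−0.90 ± 0.14) and Snhg6 (−0.61 ± 0.11) beside it. Gas5 was at 3222 and 3450 against 2840 and 1932 and did not pass. Of 23 regulators of TOP mRNAs and ribosome synthesis, 1 was lower (4.42% of all rows) and 1 higher (4.79%) in T_Dysf than in Acute-7d. Both shares were near those of the whole table. Myc was at 5540 and 6009 in Effector, 15615 and 15287 in Acute-2d, 17721 and 11335 in Acute-7d and 4537 and 4228 in T_Dysf. Between T_Dysf and Acute-7d it fell by 1.69 ± 0.22 (adjusted p = 0.018, limma), so the libraries with less ribosomal protein mRNA were also those with less Myc mRNA. The part of Myc in these values was not tested. Tsc2, a brake on mTORC1, was higher by 0.36 ± 0.04 in T_Dysf (adjusted p = 0.016), and Larp1 had −0.37 ± 0.15 (adjusted p = 0.19).

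**Figure D4:**
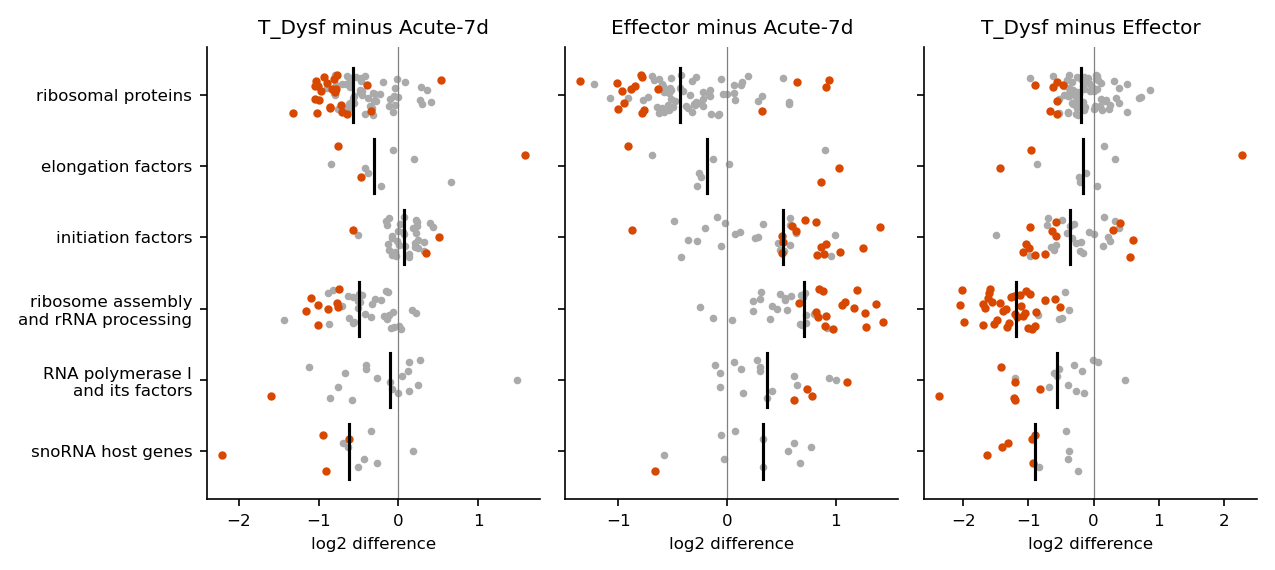
Log2 differences of ribosomal protein families (member plus copies) and of genes in 5 related lists in 3 comparisons that share libraries. Each point is a gene, orange where the adjusted p was under 0.05, and black bars are medians. In Effector minus Acute-7d the median of assembly genes (0.71) lies to the right of 0 and that of ribosomal proteins (−0.43) to the left.

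Members with and without a pyrimidine run touching the 5 bases on either side of the annotated start were set side by side, with no test of the difference. Among families with a promoter in the RefSeq table and a mean of at least 50, the 20 with a run of at least 8 had a median difference between T_Dysf and Acute-7d of −0.49, with a range from −1.04 to 0.53, and 8 were called lower and 1 higher. The 37 without had −0.61, with a range from −1.31 to 0.41, and 8 were called lower and 0 higher. Of all rows 4.66% were lower and 5.07% higher. In Effector against Acute-7d the medians were −0.42 and −0.50. Of the 20, 4 were lower and 3 higher, and of the 37, 3 were lower and 0 higher. All rows gave 7.51% lower and 8.16% higher, so the share lower among the 37 was near that of all rows. Against Acute-2d, T_Dysf was lower in 8 of the 20 and 16 of the 37, where 6.21% of all rows were lower. Rps27l, Rps26 and Rpl15, higher in Effector than in Acute-7d on summed levels, have such a run. So do Rps27, Rps24 and Rplp2, which were lower in that comparison. Not every such run lies at the start itself. The runs of Rps27l and Rpl4 end before it, at −4 and −5, and that of Rps26 begins at base 4 of the exon. These values are descriptions of annotated starts, which can differ from the start used in these cells.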

How the data were processed

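RNA-Seq values of 8 libraries were read from the series table. Alignment (STAR, mm10) and quantification against RefSeq transcripts (Partek Flow) were done by the authors. The values the authors deposited are the signal after division by DESeq2 median-ratio size factors, called normalized counts. Their methods name a filter on rows with a maximum under 50, which the table does not follow. Low values gave what 1 read is worth in each library. Between 51.0% and 74.9% of values were whole multiples of it (tolerance 0.01 reads), so count models were not used. Groups came from the sample labels.

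The test was limma 3.58.1 in R 4.3.3 (lmFit, eBayes with trend) on log2(normalized count + 1), over 24303 rows and 8 libraries in 1 fit of 4 group means, two-sided, with Benjamini-Hochberg adjustment over all rows. A call is an adjusted p under 0.05 with no minimum fold. Differences on this scale understate changes of low rows. In simulated data for T_Dysf against Acute-7d with 24303 rows, 145 of 200 rows changed 4-fold were recovered and 8 unchanged rows were called. The changed rows had a mean of at least 50, and noise was independent between rows and libraries. The median member differed by −0.53 (log2), and recovery of changes that small was not simulated. Copies were found with blastn 2.17.0 from GENCODE vM21 coding sequences (GRCm38) among 23629 symbols matched, and 28 more by a -ps symbol alone. The sums of members and copies were fitted in the same way. Gene types, promoters and starts came from RefSeq for GRCm38.p6, in which 59 members were found. Summaries used Python 3.11.15, numpy 2.4.6 and pandas 2.3.3, and plots matplotlib 3.10.9.

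Members and lists were chosen with earlier results of these data known. Named were the 4 highest and 4 lowest rows per comparison with a mean of at least 50, paralogs, the P stalk, members with known other functions, members under that mean, and up to 4 called genes per list plus 9 fixed genes. Some of these are not reported here. Members named beyond that rule were chosen after their values were seen. Alternatives are given in the closing section. Replicate numbers were not taken as pairs: over 6 pairs the correlation of deviations was −0.20 to 0.20, with 2 pairs over 0.1.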

Additional observations from a re-analysis of the deposited data

How the results depend on the processing

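The median over member rows kept its direction in all 5 comparisons under every alternative run: pseudocounts of 0.1 and 10, filters of 50 on the mean or the maximum of a row, equal totals, equal 75th percentiles, quantile normalization, median ratio without members and -ps rows, sums with -ps rows or all copies, the 2 groups alone, a RESUB term, a replicate block and each library left out. Leaving out 1 library gave medians of −0.62 to −0.45 for T_Dysf against Acute-7d, −0.72 to −0.51 against Acute-2d, −0.25 to −0.076 against Effector, −0.48 to −0.25 for Effector against Acute-7d and −0.11 to −0.019 for Acute-7d against Acute-2d. Equal 75th percentiles shifted the median of all rows by −0.10, −0.12 and −0.13 in T_Dysf against Acute-7d and Acute-2d and in Effector against Acute-7d, and the median of members by nearly as much.

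The number of members called, lower and higher together, depended on the fit. Shares of all rows are not given for most of these fits. A change over the whole table thus cannot be told apart from one in the members. Counts follow in 1 order: T_Dysf minus Acute-7d, minus Acute-2d and minus Effector, then Effector minus Acute-7d. The main counts were 16, 23 (1 of them higher), 8 and 18 (4 of them higher). They were 37, 41, 18 and 31 among rows with a mean of at least 50, 37, 40, 18 and 30 with a maximum of at least 50, 40, 44, 21 and 30 with limma-voom, 5, 6, 0 and 0 with the 2 groups alone and 1, 10, 0 and 0 with the RESUB term. With the replicate number as a block they were 6, 10, 4 and 7, although the numbers are not taken to pair the samples. Leaving out 1 library gave 1 to 20, 2 to 26, 3 to 19 and 0 to 15, and 0 throughout for Acute-7d against Acute-2d, where no alternative called a member. Fewer libraries leave fewer residual degrees of freedom, and fewer rows a smaller adjustment; the part of each was not tested.

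With -ps rows the share of all counts became 5.63% (Effector), 7.69% (Acute-2d), 7.23% (Acute-7d) and 5.02% (T_Dysf), and with all copies 7.54%, 10.4%, 9.85% and 6.55%. Without 1 library of the group, the shares on member rows were 3.29% to 4.01%, 4.78% to 5.18%, 4.66% to 4.72% and 3.18% to 3.55%. The row of Rpl17 between T_Dysf and Effector (−1.83) turned to 0.15 with -ps rows, 0.13 with all copies and 0.13 without T_Dysf replicate 1, and was −3.79 without T_Dysf replicate 2. That of Rpl39 (0.74) was −0.15 without T_Dysf replicate 1 and 1.62 without replicate 2. Of the other values for single named rows, 762 kept direction and side of the threshold, 61 lost their call and 50 gained one. With 2 libraries a group and no recovered read counts, differences under about the spread of the T_Dysf replicates are not resolved.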
